A study of Mus musculus with 21 samples.

Results

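The immediate early genes described here are the 10 genes *Fos*, *Jun*, *Junb*, *Jund*, *Egr1*, *Ier2*, *Ier3*, *Ier5*, *Dusp1* and *Atf3*. They were chosen by name, with earlier results of these data known, and matched to the Ensembl identifiers in the count tables. They are 10 of 51467 genes counted, and all 10 were among the 14518 genes that passed the expression filter and were tested. Nascent RNA, labelled with 500 µM 4-thiouridine (4sU) for 30 min and pulled down, and total RNA were sequenced from 7 cultures of V6.5 mouse embryonic stem cells (ESCs). Wild type was represented by 3 cultures and *Ddx6* KO by 4, of which 2 came from KO clone 1 and 2 from KO clone 2. Both KO lines were made with CRISPR-Cas9 and each grew from 1 sorted cell, so each genotype effect rests on 2 clones against their parent line. All cultures were grown with serum, LIF and the 2i inhibitors, of which PD0325901 blocks MEK, a kinase upstream of many immediate early genes.

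Immediate early genes are transcribed within minutes of a signal such as serum, growth factors or stress, without new protein synthesis. FOS and JUN proteins pair to form the transcription factor AP-1, EGR1 is a zinc finger transcription factor, and DUSP1 is a phosphatase that switches MAP kinases off again. Their mRNAs are known for rapid decay, in many cases through AU-rich elements in the 3′ UTR. DDX6 is a DEAD box helicase of P-bodies that represses translation and works with the decapping and deadenylation machinery. The comparison of *Ddx6* KO with wild type therefore asks, for these genes, whether nascent RNA, mRNA and the ratio between them changed when DDX6 was lost.

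The 3′ UTRs of the members are shown because AU-rich elements are the sequence feature for which these mRNAs are known. The pentamer ATTTA was present in the 3′ UTR of 9 of 10 members, against 67.8% of 11960 tested protein-coding genes and 74.5% of the 5752 genes whose 3′ UTR is as long as those of the members. *Ier2* had no ATTTA. The longer element TATTTAT, in which an ATTTA lies by construction, was found in 6 of 10 members, against 28.8% of all these genes and 27.5% of those with a 3′ UTR of similar length. The site GCACTT, which pairs with the seed of the miRNA family that dominates in ESCs, was found in 3 of 10 members (*Junb*, *Ier3* and *Atf3*), against 31.6% of all these genes. Each motif was searched on the transcribed strand. The 30-base windows with the most ATTTA pentamers are given below from the Gencode M21 transcripts, 5′ to 3′ on the transcribed strand with positions in GRCm38, and the capitals mark ATTTA. The window of *Egr1* is not printed.
*Fos*, chr12:85477106-85477135: tttcaATTTATTTAttaagatggattctca
*Jun*, chr4:95049209-95049238: tgatcATTTAtaatcataggaaagATTTAg
*Junb*, chr8:84977119-84977148: tgtgtATTTAacagggaggggagaaggggg
*Jund*, chr8:70700366-70700395: gccctATTTAtgtttctactcgggaacaaa
*Ier3*, chr17:35822488-35822517: ttaatATTTAtgtATTTAtgtatatcctcc
*Ier5*, chr1:155096839-155096868: gctaaATTTAattctcatgtagcagaactt
*Dusp1*, chr17:26506151-26506180: tccttATTTATTTAacacccccctcacccc
*Atf3*, chr1:191171234-191171263: ccaggATTTAggccttatcatcccggccag

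Overlapping pentamers stood in the windows of *Fos* and *Dusp1*, and closely spaced ones in that of *Ier3*, which had 5 ATTTA pentamers in 613 bases of 3′ UTR. *Ier5*, with the longest 3′ UTR of 2143 bases, had 2, which is 0.933 per kb. In these transcripts the density was highest in *Ier3*, with 8.16 per kb, followed by *Dusp1* with 5.80 and *Fos* with 4.91. A match is only a match of letters, and binding by any protein was not measured.

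Promoters are shown because 8 of 10 members rose in nascent RNA. RefSeq promoter windows of GRCm38.p6 were matched for 8 members, without *Egr1* and *Ier2*, and the 250 bases before each start were searched on both strands. The letters TGACG, the core of the cAMP response element that CREB and ATF proteins bind, were present in 4 of the 8 windows, against 26.3% of 12813 windows of tested genes. The full element TGACGTCA, which contains that core on both strands, was found in *Dusp1*, against 2.58% of windows. No member window held a CArG box, the motif bound by SRF, which 1.08% of windows held, nor an AP-1 site (TGACTCA or TGAGTCA), which 2.97% held. With only 8 windows and shares this low, finding none says little. Bases further upstream were not searched, so a CArG box or AP-1 site there would be missed. RefSeq starts coincide with those of the gene models in the counts for *Fos*, *Jun* and *Ier5*. They lie a short way upstream for *Junb* and a short way inside the model for *Ier3* and *Dusp1*, far upstream for *Jund* and far inside for *Atf3*. The 4 windows with the core are printed 5′ to 3′ on the strand of the gene, with the core or the full element in capitals.
*Fos*, chr12:85473640-85473889: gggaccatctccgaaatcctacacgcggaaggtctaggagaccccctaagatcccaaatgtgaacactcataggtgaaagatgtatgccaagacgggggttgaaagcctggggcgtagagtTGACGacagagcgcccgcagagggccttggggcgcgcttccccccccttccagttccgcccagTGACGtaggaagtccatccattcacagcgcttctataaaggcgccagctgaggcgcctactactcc
*Junb*, chr8:84978749-84978998: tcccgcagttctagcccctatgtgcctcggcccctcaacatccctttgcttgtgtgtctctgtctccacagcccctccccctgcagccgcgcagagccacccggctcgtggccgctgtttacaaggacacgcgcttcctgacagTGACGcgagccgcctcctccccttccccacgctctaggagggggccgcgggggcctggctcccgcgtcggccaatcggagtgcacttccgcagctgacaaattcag
*Dusp1*, chr17:26508473-26508722: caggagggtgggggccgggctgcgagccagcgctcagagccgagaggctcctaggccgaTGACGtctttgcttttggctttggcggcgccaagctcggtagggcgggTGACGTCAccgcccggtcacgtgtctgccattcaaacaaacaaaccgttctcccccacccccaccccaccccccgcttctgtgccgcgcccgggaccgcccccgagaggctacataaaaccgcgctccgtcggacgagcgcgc
*Atf3*, chr1:191183334-191183583: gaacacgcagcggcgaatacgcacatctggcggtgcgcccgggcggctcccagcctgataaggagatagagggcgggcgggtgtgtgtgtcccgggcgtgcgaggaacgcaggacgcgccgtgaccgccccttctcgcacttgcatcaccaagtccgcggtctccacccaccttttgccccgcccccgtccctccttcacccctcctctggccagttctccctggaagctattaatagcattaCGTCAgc

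The windows of *Fos*, *Junb* and *Dusp1* hold the core, and nascent RNA of these genes rose in *Ddx6* KO. Nascent *Atf3*, whose window also holds it, fell. The windows of *Jun*, *Jund*, *Ier3* and *Ier5* do not hold the core, and nascent RNA of these genes rose as well. These letters are a description and were not tested against expression.

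Each 4sU library held 2441639 to 3570192 counts and each total RNA library 5724179 to 7369651. All values below are CPM (counts scaled to library size) after TMM normalization, with factors of 0.925 to 0.942 for wild-type and 1.03 to 1.07 for KO libraries. Wild-type cultures had 371 ± 31.6 CPM of *Ddx6* mRNA (SD, n = 3) and KO cultures 42.6 ± 23.7 CPM (n = 4), lower in every KO culture. Nascent *Ddx6* was also lower in every KO culture, with a log2 fold change of -0.41 (SE 0.32, edgeR adjusted p = 0.348). It passed in 2 of 18 alternatives, clone 2 only (-0.71, edgeR adjusted p = 2.54e-09) and limma-voom (-0.44, adjusted p = 0.0495). With clone 1 only it was -0.15 (edgeR adjusted p = 0.151). ESC markers were high, with a summed level over 8 genes of 3645 to 3718 CPM in wild-type total RNA and 3911 to 4114 in *Ddx6* KO. The sum covers both directions, since 4 of these genes rose and 2 fell in total RNA at an edgeR adjusted p below 0.05. *Nanog* went from 637 to 960 CPM, whereas *Dppa5a* went from 490 to 272 CPM. Summed fibroblast markers were low but higher in every KO culture, with 5.02 to 7.54 CPM in wild-type and 13.3 to 16.4 CPM in KO total RNA. Of these 9 genes, 2 were at 0 in every total RNA library, and the 3 that were tested included *Col1a1* and *Thy1*, whose mRNA rose by 0.97 (edgeR adjusted p = 0.00486) and 1.47 (adjusted p = 2.02e-06) on the log2 scale. Without wild-type culture 1 the rise of *Col1a1* no longer passed (0.71, edgeR adjusted p = 0.0613). Primitive endoderm markers summed to 5.69 to 8.37 CPM in wild type and 6.55 to 7.72 in *Ddx6* KO, and mesoderm or neural markers to 100.1 to 101 and 61.9 to 65.7. Most of the last sum was *Nes*, with a mean of 80.1 CPM in wild type and 46.8 in *Ddx6* KO. Whether other cell types were present, and their part in the results below, was not tested. In bulk RNA, fewer cells that express a gene and less of its RNA per cell cannot be told apart. None of the members lies on chromosome 6.

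Most members were higher in *Ddx6* KO in both kinds of RNA. In nascent RNA, 8 of 10 rose and 1 (*Atf3*) fell at an adjusted p below 0.05 by the quasi-likelihood test of edgeR, where 20.6% of all tested genes rose and 21.0% fell. In total RNA, 8 of 10 rose and 0 fell, where 19.5% of tested genes rose. With an absolute log2 fold change above 1 in addition, which is the rule for a called gene here, 3 members were called higher in nascent RNA (*Junb*, *Egr1* and *Ier3*) and 4 in total RNA (*Jun*, *Junb*, *Ier3* and *Ier5*), against 5.13% and 5.28% of tested genes. Over the 10 members the median log2 fold change was 0.46 in nascent RNA and 1.06 in total RNA, against 0.00094 and -0.10 over all tested genes. Scaling by library size only moved the median of all tested genes to 0.21 in nascent RNA and 0.06 in total RNA, and all 10 members kept the sign of both log2 fold changes. Under it 5285 genes rose and 1838 fell in nascent RNA, against 2984 and 3050 with TMM, and 4277 rose and 2814 fell in total RNA, against 2829 and 4498. With TMM within each assay 3606 rose and 3495 fell in total RNA. In 7 members, *Fos*, *Jun*, *Junb*, *Jund*, *Ier3*, *Ier5* and *Dusp1*, both rises passed the adjusted p.

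Changes in mRNA stability, defined as the change in the total-over-4sU ratio (the interaction of assay and genotype), were fewer. The adjusted p was below 0.05 for 4 of 10 members, *Jun*, *Junb*, *Ier2* and *Ier5*, all higher in *Ddx6* KO, where 3.79% of tested genes rose and 8.58% fell. All 4 are genes of 1 exon, a trait looked at after the values were seen. The share of single-exon genes that passed the adjusted p was not counted. Over all tested genes this balance depends on the scaling, with 550 genes higher and 1246 lower in the main scaling, 734 and 577 with TMM within each assay, and 462 and 1820 with library size only. Only *Ier5* was called at the stricter rule, which 0.689% of tested genes passed in this direction. The median stability change was 0.28 for the members and -0.09 for all tested genes. In nascent RNA, 7 members had all KO cultures above all wild-type cultures and 1 had them all below, as did 20.5% and 21.2% of tested genes. In total RNA 9 members had all KO cultures above, as did 20.4% of tested genes. In the log2 total-over-4sU ratio 5 members had all KO cultures above and 1 (*Egr1*) all below, as did 7.43% and 15.5% of tested genes. The 5 are the members of 1 exon. Of 349 tested single-exon protein-coding genes, 30.7% had all KO cultures above, and their median difference was 0.24. The ratio of *Egr1* rests on 2 to 6 mRNA counts per wild-type library.

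**Figure D1:**
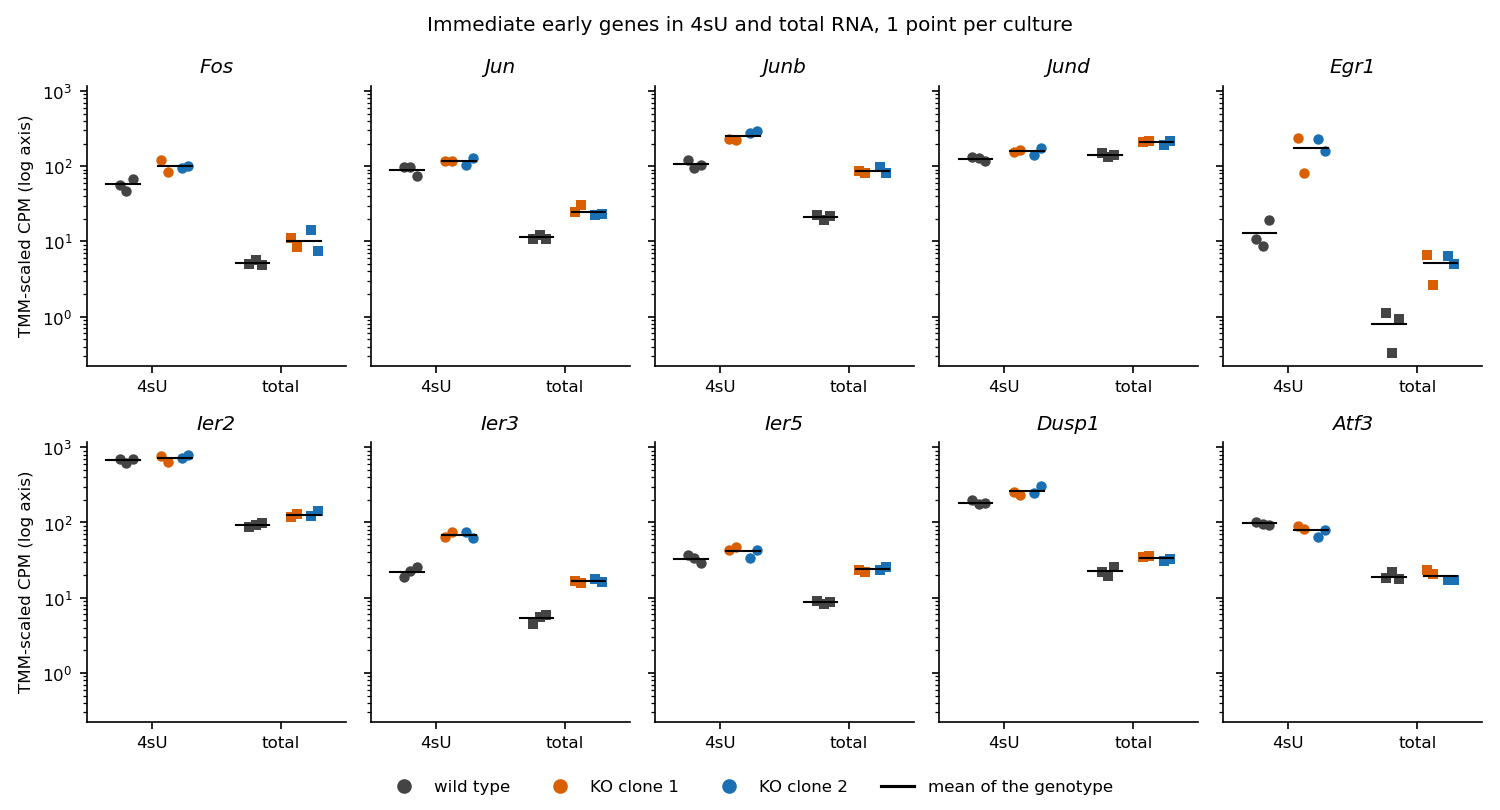
TMM-scaled CPM on a log axis for each member in 4sU RNA (circles) and total RNA (squares), with 1 point per culture of wild type (grey), KO clone 1 (orange) and KO clone 2 (blue) and a line at the mean of each genotype. *Egr1* shows the widest gap between genotypes, and *Jund* is the member whose total RNA is not below its 4sU RNA.

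*Fos*, the AP-1 partner of the JUN proteins, lies on the plus strand of chromosome 12 from 85473890 to 85477273 (ENSMUSG00000021250, 4 exons, positions in GRCm38 here and below). Its nascent RNA was 56.3, 46.9 and 68.4 CPM in the wild-type cultures, 121 and 82.8 CPM in clone 1, and 93.5 and 100.1 CPM in clone 2. The genotypes did not overlap, and the log2 fold change was 0.80 (SE 0.15, edgeR adjusted p = 1.92e-04). Total RNA was 5.02, 5.60 and 4.92 CPM in wild type against 11.03, 8.54, 14.1 and 7.41 CPM in *Ddx6* KO, and the log2 fold change was 0.99 (SE 0.26, edgeR adjusted p = 0.00295). With 27 to 34 counts per wild-type library, *Fos* mRNA was near the low end of what these libraries measure. The stability change of 0.19 (SE 0.30, edgeR adjusted p = 0.766) was smaller than its error. *Fos* thus rose in both kinds of RNA, and a difference between the 2 rises was not detectable at this depth.

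The JUN family holds 3 members, and each is a gene of 1 exon. *Junb* (chromosome 8, 84976910 to 84978718, minus strand, ENSMUSG00000052837), which encodes a JUN protein known as a weaker activator than JUN, showed the clearest rise. Its nascent RNA was 120.1, 93.8 and 104 CPM in wild type, 229 and 221 CPM in clone 1, and 278 and 295 CPM in clone 2. Total RNA went from 22.7, 19.4 and 21.7 CPM in wild type to 86.3, 81.5, 96.2 and 81.8 CPM in *Ddx6* KO. Every KO value was thus well above every wild-type value in both assays. The log2 fold changes were 1.28 in nascent RNA (SE 0.10, edgeR adjusted p = 1.51e-12) and 2.03 in total RNA (SE 0.11, adjusted p = 7.70e-16). The rise of mRNA exceeded that of nascent RNA, and the stability change was 0.74 (SE 0.15, edgeR adjusted p = 0.00121).

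*Jun* (chromosome 4, 95049034 to 95052222, minus strand, ENSMUSG00000052684), the founding AP-1 subunit, rose more in total than in nascent RNA. Its nascent RNA was 96.1, 96.4 and 73.8 CPM in wild type and 118, 118, 104 and 128 CPM in *Ddx6* KO, and the log2 fold change was 0.41 (SE 0.09, edgeR adjusted p = 3.82e-04). Total RNA was 10.8, 12.4 and 10.9 CPM in wild type and 24.6, 30.1, 22.1 and 23.1 CPM in *Ddx6* KO, and the log2 fold change was 1.139 (SE 0.13, edgeR adjusted p = 1.01e-10). The genotypes did not overlap in either assay. The stability change was 0.73 (SE 0.16, edgeR adjusted p = 0.00138), which is close in size to that of *Junb*.

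*Jund* (chromosome 8, 70698949 to 70700616, plus strand, ENSMUSG00000071076), the JUN protein that many cell types express without a stimulus, was the most abundant of the 3 in total RNA. Its total RNA was 152, 131 and 141 CPM in wild type and 207, 216, 193 and 217 CPM in *Ddx6* KO, and the log2 fold change was 0.56 (SE 0.06, edgeR adjusted p = 7.07e-11). Nascent RNA was 132, 128 and 118 CPM in wild type and 156, 166, 141 and 172 CPM in *Ddx6* KO, and the log2 fold change was 0.34 (SE 0.08, adjusted p = 2.55e-04). The groups did not overlap in either assay, although the stability change of 0.22 (SE 0.10, edgeR adjusted p = 0.143) did not pass the threshold. It passed with TMM within each assay (0.31, edgeR adjusted p = 0.0365), which was 1 of 19 alternatives. Exons of *Jund* overlap *Gm11175* on the opposite strand, and the counts were made with strand.

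Per kb of exon, the make-up of the JUN family shifted towards *Junb*. In total RNA, *Junb* made up 11.7% ± 0.263 (SD, n = 3) of the family in wild type, but 26.5% ± 2.64 (SD, n = 4) in *Ddx6* KO, while *Jund* went from 84.7% ± 0.400 to 69.2% ± 2.37. *Jun* stayed the smallest part, with 3.58% ± 0.509 and 4.34% ± 0.549. In 4sU RNA, *Junb* made up 36.1% ± 3.00 in wild type and 51.6% ± 4.21 in *Ddx6* KO, and *Jun* 17.2% ± 1.86 and 13.5% ± 1.11. The summed level of the 3 genes in total RNA was 100.0 ± 6.87 CPM per kb in wild type and 181 ± 3.53 CPM per kb in *Ddx6* KO. Shares of *Junb* and *Jund* did not overlap between genotypes in either assay, whereas those of *Jun* overlapped in total RNA, from 3.16% to 4.15% and from 3.94% to 5.12%.

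**Figure D2:**
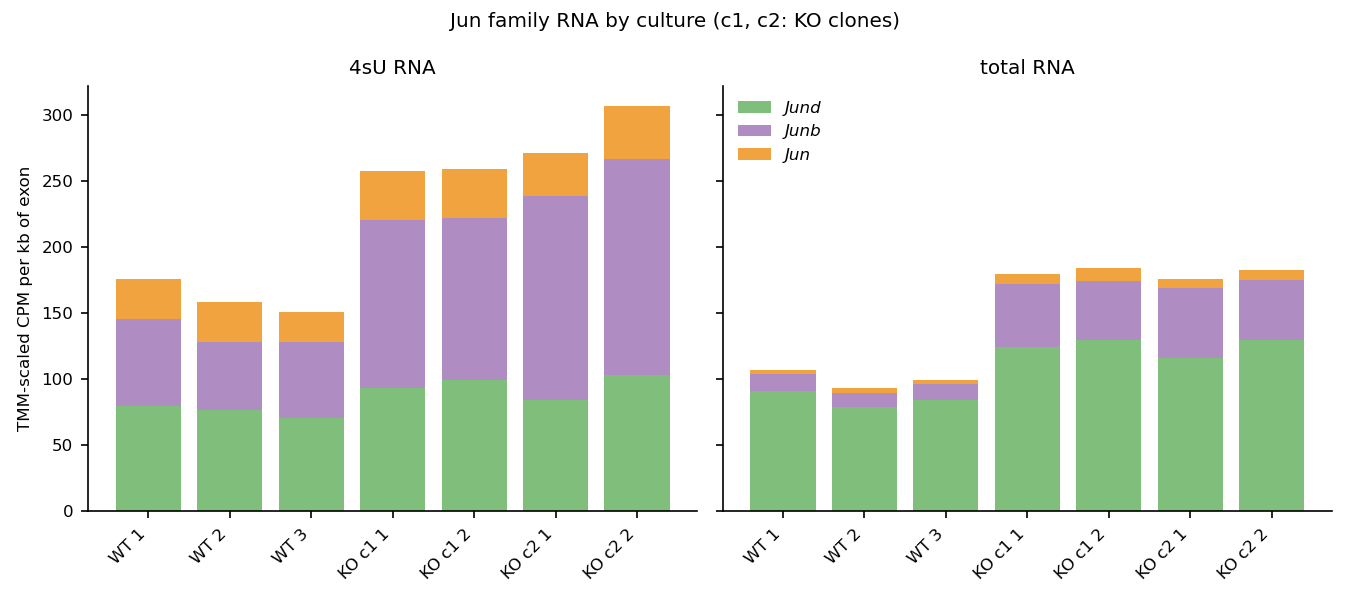
Stacked bars of TMM-scaled CPM per kb of exon for *Jund*, *Junb* and *Jun* in each of the 7 cultures, in 4sU RNA (left) and total RNA (right). *Junb* takes a larger part of every KO bar than of every wild-type bar, and in total RNA the family sum is 93.4 to 107 CPM per kb in wild type and 176 to 184 in *Ddx6* KO.

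*Egr1* encodes a zinc finger transcription factor induced through ERK signalling and SRF. Its nascent RNA had the largest rise among the members, from 10.6, 8.79 and 19.6 CPM in wild type to 237 and 82.2 CPM in clone 1 and 228 and 157 CPM in clone 2. The lowest KO culture, the second culture of clone 1, was still above the highest wild-type culture. The log2 fold change of 3.74 (SE 0.48, edgeR adjusted p = 7.75e-05), a 13.4-fold rise, ranked 23 from the top of 14518 tested genes. In total RNA *Egr1* was scarce, with 6, 2 and 6 counts in the wild-type libraries and 41, 20, 48 and 32 in those of *Ddx6* KO. These counts correspond to 1.12, 0.329 and 0.923 CPM against 6.55, 2.63, 6.32 and 4.94 CPM, so the groups did not overlap. The log2 fold change of 2.66 had an SE of 1.20 and did not pass the threshold (edgeR adjusted p = 0.0904). It passed in 6 of 18 alternatives, among them DESeq2 (2.73, adjusted p = 2.78e-05), limma-voom (2.61, adjusted p = 0.0224) and the fit without the second culture of clone 1 (2.90, edgeR adjusted p = 0.00136). The size of the mRNA change is therefore poorly determined at this depth, and the stability change of -1.09 (SE 1.82, edgeR adjusted p = 0.786) cannot be told from 0. The gene lies on the plus strand of chromosome 18 from 34859823 to 34864984 (ENSMUSG00000038418, 2 exons).

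The *Ier* genes differed in which kind of RNA moved. *Ier3*, which encodes a small protein linked to survival and ERK signalling, rose 3.06-fold in nascent and 3.08-fold in total RNA. *Ier3* nascent RNA was 19.1, 22.4 and 25.3 CPM in wild type and 63.7, 73.8, 74.7 and 62.8 CPM in *Ddx6* KO, and the log2 fold change was 1.61 (SE 0.13, edgeR adjusted p = 2.66e-16). Its total RNA was 4.47, 5.60 and 5.85 CPM in wild type and 16.5, 15.9, 17.7 and 16.1 CPM in *Ddx6* KO, and the log2 fold change was 1.62 (SE 0.16, edgeR adjusted p = 4.07e-13). The stability change was 0.01 (SE 0.17, adjusted p = 0.980), with no fixed sign over the alternatives, which gave -0.06 to 0.10. The gene lies on the plus strand of chromosome 17 from 35821684 to 35822923 (ENSMUSG00000003541, 2 exons).

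*Ier5*, a gene of 1 exon whose protein is linked to the heat shock response, rose mainly in total RNA. Total RNA was 8.93, 8.23 and 8.77 CPM in wild type and 23.5, 21.9, 23.6 and 25.9 CPM in *Ddx6* KO, and the log2 fold change was 1.45 (SE 0.14, edgeR adjusted p = 1.86e-13). Nascent RNA was 36.8, 33.7 and 28.6 CPM in wild type and 43.2, 46.5, 33.6 and 43.6 CPM in *Ddx6* KO, where the genotypes overlapped. Its nascent log2 fold change of 0.35 (SE 0.13, edgeR adjusted p = 0.0255) passed in 9 of 18 alternatives, among which the adjusted p ran up to 0.213. Leaving out wild-type culture 2 (adjusted p = 0.0565), wild-type culture 3 (0.188), clone 1 culture 1 (0.0549) or clone 1 culture 2 (0.0797) each ended this call by edgeR. The stability change of 1.11 (SE 0.19, edgeR adjusted p = 3.54e-05), a 2.16-fold rise, was the largest of the members and passed in all 19 alternatives. With clone 1 only it was 0.95, under the fold-change threshold. *Ier5* lies on the minus strand of chromosome 1 from 155096361 to 155099636 (ENSMUSG00000056708).

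*Ier2*, the member with the highest nascent level, also has 1 exon (chromosome 8, 84661331 to 84662852, minus strand, ENSMUSG00000053560) and encodes a small nuclear protein. Nascent RNA was 708, 625 and 705 CPM in wild type and 757, 645, 719 and 789 CPM in *Ddx6* KO, which overlapped, with a log2 fold change of 0.10 (SE 0.06, edgeR adjusted p = 0.197). It passed in 3 of 18 alternatives, which were library size only (0.31, adjusted p = 6.04e-05), no filter beyond 1 count (0.16, adjusted p = 0.0338) and the fit without clone 1 culture 2 (0.16, adjusted p = 0.0456). Total RNA was 87.5, 93.7 and 98.1 CPM in wild type and 117, 129, 122 and 141 CPM in *Ddx6* KO, and the log2 fold change was 0.45 (SE 0.07, edgeR adjusted p = 4.87e-07). Its stability change was 0.35 (SE 0.09, edgeR adjusted p = 0.00916), and 0.28 without wild-type culture 1 (adjusted p = 0.104). *Ier2* is the member without an ATTTA in its 3′ UTR.

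*Dusp1*, the phosphatase that inactivates JNK, p38 and ERK kinases, rose in both assays. Nascent RNA was 197, 174 and 181 CPM in wild type and 254, 233, 248 and 305 CPM in *Ddx6* KO, and the log2 fold change was 0.51 (SE 0.08, edgeR adjusted p = 2.12e-07). Total RNA was 21.96, 19.4 and 25.7 CPM in wild type and 34.8, 36.3, 31.1 and 32.9 CPM in *Ddx6* KO, and the log2 fold change was 0.59 (SE 0.11, edgeR adjusted p = 5.90e-06). The stability change of 0.08 (SE 0.13, adjusted p = 0.764) was within its error. *Dusp1* lies on the minus strand of chromosome 17 from 26505590 to 26508519 (ENSMUSG00000024190, 4 exons).

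*Atf3*, a transcription factor of the stress response, was the exception to the rise. Its nascent RNA was 103, 94.5 and 93.8 CPM in wild type and 89.3, 80.9, 64.4 and 79.2 CPM in *Ddx6* KO, lower in every KO culture. The nascent log2 fold change was -0.30 (SE 0.10, edgeR adjusted p = 0.011). It passed in 13 of 18 alternatives, and did not pass with scaling by library size only (-0.10, adjusted p = 0.438), with the single-end run alone (-0.25, adjusted p = 0.0751), with clone 1 only (-0.18, adjusted p = 0.191), without wild-type culture 1 (-0.27, adjusted p = 0.0626) or without clone 2 culture 1 (-0.21, adjusted p = 0.0902). Total RNA was 18.1, 21.7 and 17.5 CPM in wild type and 23.3, 20.8, 17.1 and 17.4 CPM in *Ddx6* KO, which overlapped (log2 fold change 0.04, SE 0.12, edgeR adjusted p = 0.826). The stability change of 0.34 (SE 0.16, edgeR adjusted p = 0.164) did not pass. *Atf3* lies on the minus strand of chromosome 1 from 191170296 to 191218039 (ENSMUSG00000026628, 4 exons).

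**Figure D3:**
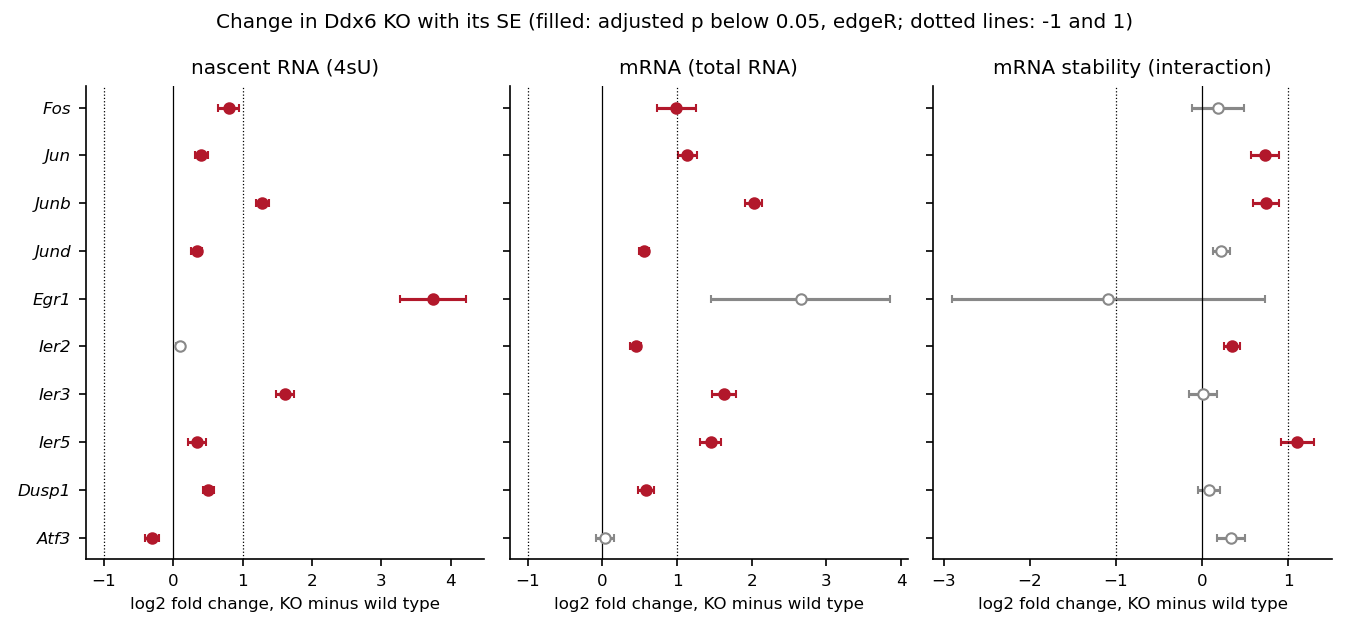
Log2 fold change of *Ddx6* KO over wild type with its SE for each member in nascent RNA (left), mRNA (middle) and mRNA stability (right), with filled points for an adjusted p below 0.05 from edgeR and dotted lines at -1 and 1. Of the 10 members, 8 are filled to the right of 0 in nascent RNA, 8 in mRNA and 4 in mRNA stability.

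In wild type the members had little total RNA for the amount of nascent RNA. The log2 total-over-4sU ratio, computed per culture with 0.5 CPM added to both, had a median of -2.59 over the members and of 0.07 over all tested genes. Ranked among all tested genes, the members lay at a median percentile of 8.45, with 5 of 10 in the lowest 10% and 9 of 10 in the lowest 25%. The lowest ratios were those of *Egr1*, -3.36 ± 0.53 (SD, n = 3), and *Fos*, -3.33 ± 0.36, followed by *Dusp1* with -3.02 ± 0.20, *Jun* with -2.91 ± 0.20 and *Ier2* with -2.86 ± 0.14. *Atf3* (-2.32 ± 0.20), *Junb* (-2.28 ± 0.08), *Ier3* (-1.97 ± 0.06) and *Ier5* (-1.87 ± 0.19) followed. *Jund* stood apart from the other members with 0.16 ± 0.11, at percentile 52.5.

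Counts were made over exons, and 5 members have no intron, so they were also ranked among 349 tested protein-coding genes of 1 exon, whose median log2 ratio in wild type was -1.32. Among these, the 10 members lay at a median percentile of 12.9. Of the members of 1 exon, *Jun* was at percentile 8.31, *Ier2* at 8.60, *Junb* at 17.5 and *Ier5* at 27.8, while *Jund* was at 92.0. The members with introns are ranked here against an unlike kind of gene. Most members thus stayed in the lower part among genes without introns, though less far down, and *Jund* was high by that measure. The ratio sets pulled-down RNA against total RNA and has no absolute scale, so it gives an order of genes and not a decay rate.

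In *Ddx6* KO the members remained low, at a median percentile of 12.5, with 8 of 10 in the lowest 25%. The mean ratio was higher in *Ddx6* KO than in wild type by 1.07 on the log2 scale for *Ier5*, 0.73 for *Junb*, 0.69 for *Jun*, 0.35 for *Ier2* and *Atf3*, and 0.23 for *Jund*. It differed by at most 0.10 for *Fos*, *Dusp1* and *Ier3*. These differences, looked at by gene structure after the values were seen, fell as follows: *Jun*, *Junb*, *Jund*, *Ier2* and *Ier5*, the 5 members of 1 exon, all had every KO culture above every wild-type culture, and none of the 5 members with introns did. Among all tested genes 7.43% had every KO culture above, as did 30.7% of the 349 single-exon protein-coding genes, whose median difference was 0.24, above that of *Jund*. The median ratio of those genes went from -1.32 to -0.91. *Egr1* went down, to -4.93 ± 0.17 (SD, n = 4), which rests on few mRNA counts in wild type. Its wild-type total RNA was 0.329 to 1.12 CPM, close to the 0.5 CPM added. The ratio difference was -1.57, while the fitted stability change was -1.09 (SE 1.82, edgeR adjusted p = 0.786).

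**Figure D4:**
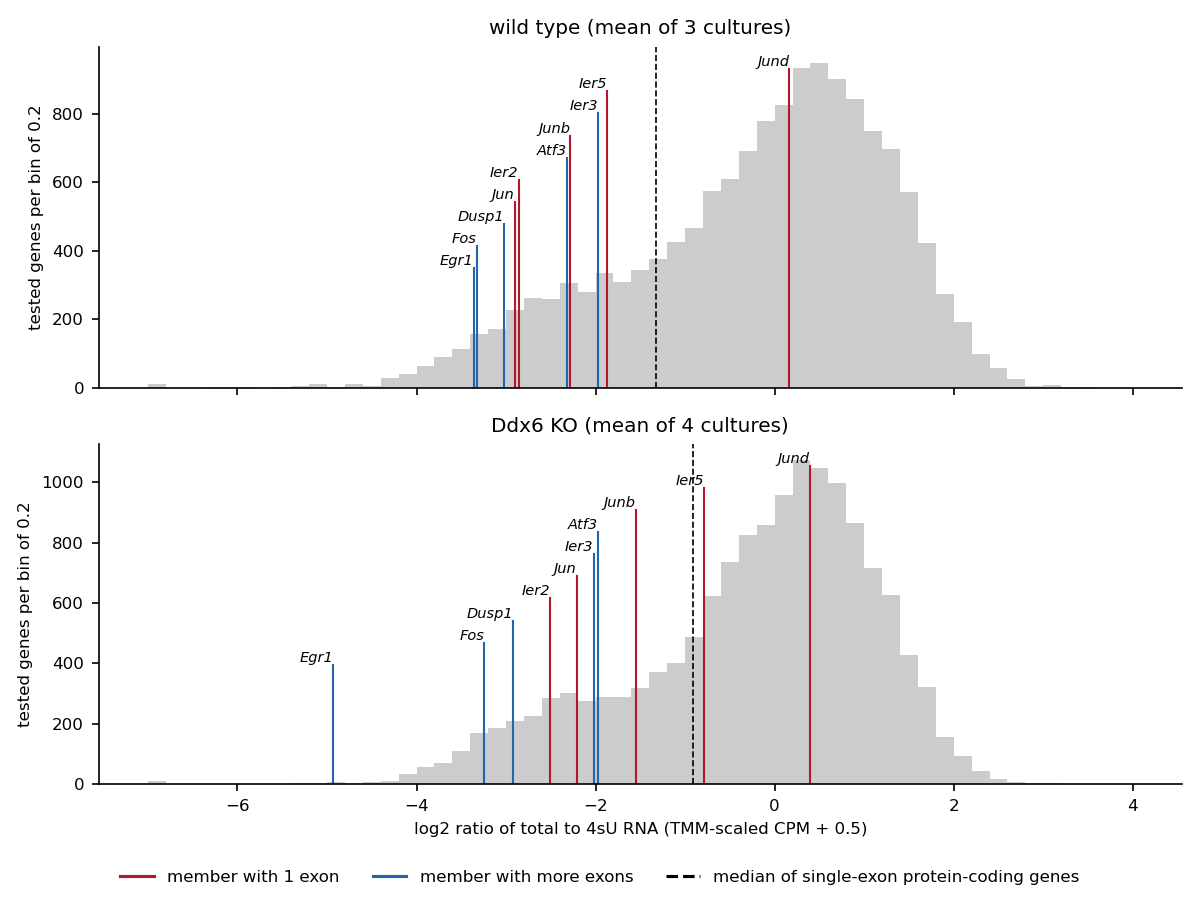
Number of tested genes by log2 total-over-4sU ratio for wild type (top) and *Ddx6* KO (bottom), with lines for members of 1 exon (red) and of more exons (blue) and a dashed line at the median of single-exon protein-coding genes. All members but *Jund* lie in the left tail in wild type, and the red lines sit further right in *Ddx6* KO.

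Per kb of exon, the order of nascent levels in wild type ran from *Ier2* (446 ± 30.7 CPM per kb, SD, n = 3) over *Dusp1* (92.4 ± 5.86), *Jund* (75.5 ± 4.55), *Junb* (58.5 ± 7.32) and *Atf3* (45.04 ± 2.33) to *Jun* (27.8 ± 4.06), *Fos* (27.1 ± 5.12), *Ier3* (19.7 ± 2.78), *Ier5* (10.1 ± 1.26) and *Egr1* (2.90 ± 1.28). *Jun* and *Fos* did not differ beyond their spread. In total RNA, *Jund* (84.7 ± 6.21 CPM per kb) and *Ier2* (61.2 ± 3.52) stood far above *Junb* (11.8 ± 0.928) and *Dusp1* (11.2 ± 1.58), which did not differ beyond their spread, and *Egr1* was last with 0.176 ± 0.0915. In *Ddx6* KO, *Junb* came second in nascent RNA with 142 ± 19.97 CPM per kb (SD, n = 4), within its spread of *Dusp1* with 131 ± 15.7. *Egr1*, last in wild type, reached 39.3 ± 16.04 CPM per kb, within the spread of *Fos*, *Jun* and *Atf3*.

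Genes that work with the members were looked at as lists. Their counts, here and in the lists that follow, stand against those of all tested genes. Of these, 20.6% rose and 21.0% fell in nascent RNA, and 3.79% rose and 8.58% fell in mRNA stability. In total RNA, 2829 rose and 4498 fell of 14518. Of 9 other AP-1 and ATF partners, 4 were tested, and 3 rose in nascent RNA, while 2 rose and 1 fell in total RNA. *Fosl2*, a FOS family member, rose by 1.61 in nascent RNA (SE 0.25, edgeR adjusted p = 4.44e-07) and by 1.5004 in total RNA (SE 0.29, adjusted p = 1.75e-05), from 1.95 ± 0.913 to 5.47 ± 1.141 CPM. *Atf2*, a CREB-like factor that pairs with JUN, rose by 0.37 in nascent RNA (SE 0.09, adjusted p = 2.91e-04) and by 0.21 in total RNA (adjusted p = 0.00948). Its nascent rise did not pass with the re-sequencing run alone (0.19, adjusted p = 0.283), nor its mRNA rise with clone 2 only (0.19, adjusted p = 0.0576). *Fosb* and *Fosl1* were too low to be tested, with at most 15 and 8 counts in a library.

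A wider list of 23 other immediate early genes had 19 that were tested. In nascent RNA 11 rose and 6 fell, in total RNA 11 rose and 3 fell, and for mRNA stability 5 rose and 1 fell, with median log2 fold changes of 0.37, 0.44 and 0.18. *Rhob*, a small GTPase, had a pattern like that of *Junb*, with a nascent log2 fold change of 0.84 (SE 0.08, edgeR adjusted p = 4.05e-14), an mRNA change of 1.96 (adjusted p = 3.74e-28) and a stability change of 1.12 (adjusted p = 1.09e-10). *Nr4a1*, an orphan nuclear receptor, rose by 1.08 in nascent RNA (SE 0.12, adjusted p = 3.43e-11) and by 0.63 in total RNA (adjusted p = 6.21e-07). *Maff*, a small MAF factor, rose by 2.36 in nascent RNA (SE 0.21, adjusted p = 1.50e-14), but its stability changed by -1.93 (SE 0.28, adjusted p = 1.07e-06). Its mRNA went from 8.59 ± 0.460 to 11.6 ± 1.07 CPM. *Ier5l*, a paralog of *Ier5*, moved the other way in nascent RNA, with a log2 fold change of -1.13 (SE of 0.16, adjusted p = 2.72e-08). Its mRNA changed by -0.44 (edgeR adjusted p = 0.00541), which passed in 16 of 18 alternatives. Its stability rose, as that of *Ier5* did, by 0.70 (SE 0.21, edgeR adjusted p = 0.0177), which passed in 15 of 19 alternatives. *Egr2*, *Egr3*, *Egr4* and *Nr4a3* were too low to be tested, with at most 19 counts in a library.

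The other dual-specificity phosphatases, which act on MAP kinases as DUSP1 does, held 9 tested genes of 10. Of these, 4 rose and 2 fell in nascent RNA, 5 rose and 0 fell in total RNA, and 0 passed for mRNA stability. *Dusp6*, the cytoplasmic ERK phosphatase, rose from 6.29 ± 1.91 to 17.9 ± 3.24 CPM in total RNA, a log2 fold change of 1.48 (SE 0.21, edgeR adjusted p = 2.42e-06), and by 0.98 in nascent RNA. *Dusp14* rose from 32.4 ± 2.65 to 79.7 ± 5.18 CPM (1.29, SE 0.09, adjusted p = 4.17e-17), *Dusp16* from 56.5 ± 6.56 to 111 ± 13.1 CPM (0.96, SE 0.08, adjusted p = 3.08e-14) and *Dusp8* from 1.08 ± 0.401 to 3.10 ± 1.15 CPM (1.54, SE 0.37, adjusted p = 4.09e-04).

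Of the upstream kinases and factors, all 19 genes listed were tested. In nascent RNA 6 rose and 2 fell, where 20.6% and 21.0% of tested genes did. In total RNA 3 rose and 4 fell, where 2829 and 4498 of 14518 tested genes did. In mRNA stability 2 rose and 2 fell, where 3.79% and 8.58% did. The median log2 fold changes were 0.16, 0.02 and -0.18. *Srf*, the factor that binds the CArG box, fell in nascent RNA from 167 ± 21.01 to 80.3 ± 17.5 CPM, a log2 fold change of -1.06 (SE 0.14, edgeR adjusted p = 7.65e-06). *Srf* mRNA went from 66.9 ± 4.02 to 50.3 ± 4.34 CPM (-0.41, adjusted p = 0.0179), a change that did not pass with TMM within each assay (-0.31, adjusted p = 0.0588) or with library size only (-0.25, adjusted p = 0.133), nor without wild-type culture 1 (adjusted p = 0.0717), wild-type culture 3 (0.0576) or clone 1 culture 1 (0.0664). *Map2k1*, which encodes the MEK kinase blocked by PD0325901, had a nascent log2 fold change of 0.08 (SE of 0.09, adjusted p = 0.554). Its mRNA log2 fold change of -0.18 (adjusted p = 0.00797) passed in 12 of 18 alternatives and did not pass, for example, with library size only (-0.03, adjusted p = 0.749) or without the second culture of clone 2 (-0.14, adjusted p = 0.0516). *Nab1* and *Nab2*, the co-repressors that bind EGR proteins, did not pass in nascent RNA (adjusted p = 0.565 and 0.0804) or in total RNA (adjusted p = 0.296 and 0.0975), while the stability change of *Nab2* was 0.62 (adjusted p = 0.0485). That change passed in 6 of 19 alternatives, and did not pass with either clone alone, for example (adjusted p = 0.214 and 0.0776), nor in 5 of the 7 fits without 1 culture, namely without wild-type culture 1 (0.199) or 2 (0.188), clone 1 culture 1 (0.0837), or clone 2 culture 1 (0.138) or 2 (0.0605).

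**Figure D5:**
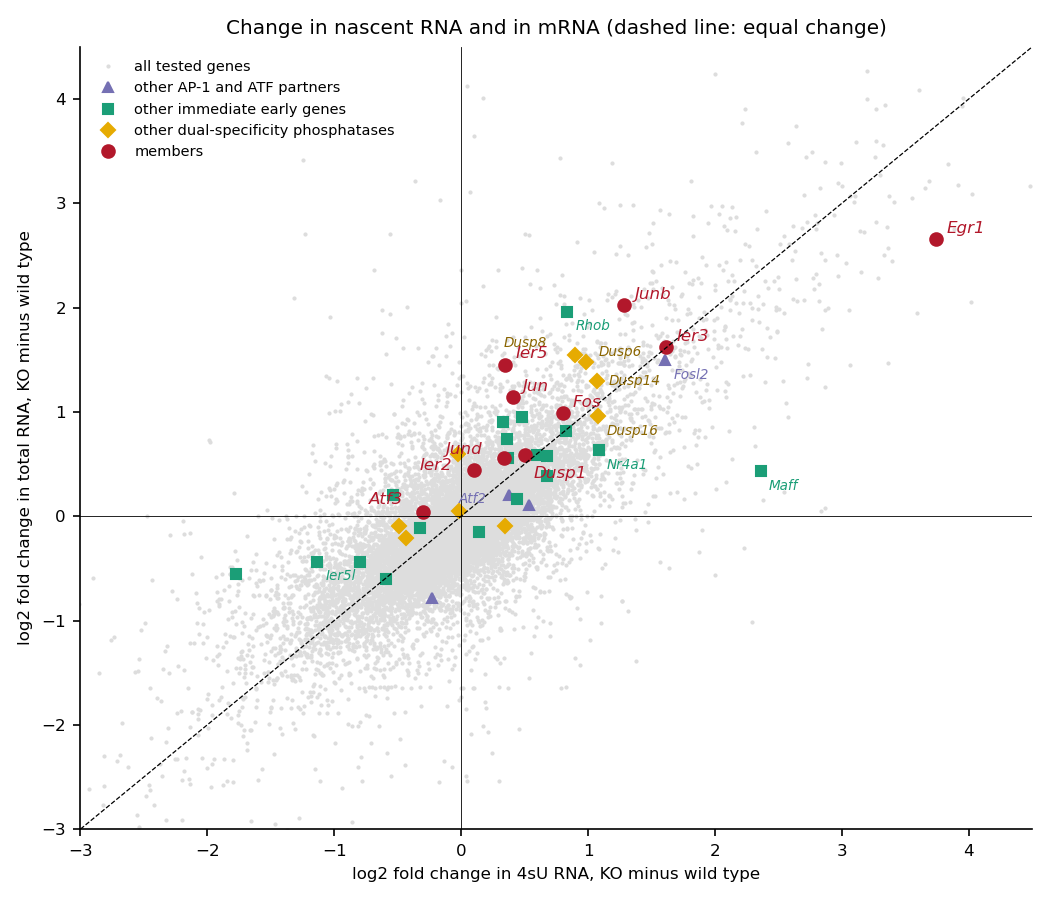
Log2 fold change in total RNA against that in 4sU RNA for all tested genes (light grey), the 10 members (red) and tested genes of the lists of AP-1 and ATF partners, other immediate early genes and dual-specificity phosphatases, with a dashed line where both are equal. *Junb*, *Jun* and *Ier5* lie above the line, *Ier3* lies on it, and *Egr1* and *Maff* lie below it. Outside the axes lie 64 genes.

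With either clone alone, all 10 members kept their direction in nascent RNA, and 9 kept it in total RNA, where *Atf3* was -0.13 with clone 2 only. Between clones, no member passed an adjusted p below 0.05 by edgeR in nascent RNA, total RNA or mRNA stability. The nearest was nascent *Junb*, higher in clone 2 than in clone 1 with a log2 difference of 0.35 (SE 0.09, edgeR adjusted p = 0.0739). Nascent *Egr1* differed between clones by 0.25 with an SE of 0.41, a difference smaller than that between both cultures of clone 1.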

How the data were processed

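RNA of 7 mouse ESC cultures was split into 4sU-labelled and total RNA, giving 14 libraries. The authors deposited read counts per gene, made with cutadapt 1.14, STAR 2.5.3a on mm10 (unique reads) and featureCounts 1.5.3 with strand, over exons of the Gencode M14 annotation. The re-sequencing run of each 4sU library was summed with its single-end run, and 92 spike-in rows, all at 0, were left out. Counts over exons also take reads of unspliced RNA that fall in exons. Gene positions are those of the count tables (GRCm38).

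A gene entered the test if 3 or more libraries reached 3 CPM. The model was the quasi-likelihood fit in edgeR 4.0.16 (R 4.3.3) with TMM factors over all 14 libraries and Benjamini-Hochberg adjustment over 14518 genes. Stability was the interaction of assay and genotype. The SE of an edgeR log2 fold change was its absolute value over the square root of F, and was not fitted separately. Ratios and sequence motifs were computed with Python 3.11.15. The stability test was checked on simulated data, with planted changes larger than any of the members'. That check does not cover changes as small as theirs. Alternatives used DESeq2 1.42.0, limma-voom (limma 3.58.1), other scalings, filters, runs, single clones, blocks and leaving out each culture. The paper states that labelled RNA was split after extraction, and the labels give both libraries of a culture the same number. Deviations of both assays correlated at 0.00759 to 0.211 over 10085 genes.

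The members and lists were chosen with earlier results of these data known. Besides the members and *Ddx6*, up to 4 called genes of each list with the smallest adjusted p were named, and lists with under 2 were filled to 2 by wild-type mRNA level. *Fosb*, *Fosl1*, *Egr2*, *Egr3*, *Egr4* and *Nr4a3* were named outside this rule because they were not tested. The labels do not say that cultures were independent, so p-values measure the spread between these samples. A count of 3 in the smallest 4sU library is 1.23 CPM.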

Additional observations from a re-analysis of the deposited data

Results flagged for a closer look

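*Ddx6* itself differed between the KO clones. It was lower in clone 2 than in clone 1, by a log2 difference of -0.56 in nascent RNA (SE 0.09, adjusted p = 9.38e-05 from edgeR), -1.49 in mRNA (SE 0.11, adjusted p = 1.01e-15) and -0.93 in mRNA stability (SE 0.15, adjusted p = 5.54e-04).

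In 4 of 96 groups of 4 KO cultures, 1 culture lay far from the others by the gap test of Dixon, where chance gives 4.8. For *Dusp6*, the log2 total-over-4sU ratio was -2.40 in the second culture of clone 1. *Nab1* mRNA was 7.09 CPM in the same culture. *Dusp8* mRNA was 1.39 CPM and *Gata4* mRNA 7.25 CPM in the second culture of clone 2. None of the 10 members had such a culture.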

How the results depend on the processing

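Over 19 alternatives, the members' log2 fold changes kept direction and side of the threshold in 511 cases, gained significance in 10, lost it in 15 and changed sign in 14. The sign changed in values near 0. *Atf3* mRNA was -0.00167 with the replicate number as a block, -0.13 with clone 2 only and -0.0398 to 0.1384 without single cultures. *Ier3* stability was -0.03691 with library size only, -0.06308 with the re-sequencing run alone, -0.00972 with clone 1 only and -0.0146 to 0.07288 without single cultures. *Fos* stability was -0.03905 to 0.3838 without single cultures, and *Dusp1* stability -0.08094 with clone 2 only. The number of members called for stability was 1, and 0 with clone 1 only. The cause was not tested.

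The median percentile of the members' ratio in wild type, 8.45, was 2.06 among protein-coding genes, 12.9 among those of 1 exon, 7.17 with the single-end run, 10.6 with the re-sequencing run, 12.1 with 0.1 CPM added and 4.84 with 2 CPM added. In *Ddx6* KO it was 12.5, and 2.89, 14.5, 10.6, 14.6, 15.0 and 5.99 in the same order. WT and KO cultures share only a replicate number, with correlations of -0.0564 to 0.149. With that number as a block, 8 members passed in nascent RNA, 9 in mRNA and 4 in stability, and *Ier5* nascent RNA no longer passed (0.29, adjusted p = 0.09 from edgeR) while *Egr1* mRNA did (3.04, adjusted p = 0.00803). With the culture as a replicate block, 4 passed in stability. Depth limits *Egr1* mRNA, with 2 to 6 counts per wild-type library.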

Other observations

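Within each genotype, the nascent level of several members was lowest in the same culture, a pattern chosen after the values were seen. *Fos*, *Junb*, *Egr1*, *Ier2* and *Dusp1* were lowest of the wild-type cultures in culture 2, and these 5 were also lowest of the KO cultures in the second culture of clone 1. *Jun*, *Jund*, *Ier5* and *Atf3* were lowest in wild-type culture 3, and these 4 were lowest in the first culture of clone 2. *Ier3* was lowest in wild-type culture 1 and in the second culture of clone 2. Of all tested genes lowest in wild-type culture 2 in 4sU RNA, 24.1% were also lowest in the second culture of clone 1, and of those lowest in wild-type culture 3, 31.0% were also lowest in the first culture of clone 2. In total RNA the pattern did not hold throughout. Of 5 members lowest in wild-type culture 2, 3 (*Junb*, *Egr1* and *Ier5*) were lowest in the second culture of clone 1, and of 2 lowest in wild-type culture 3, 1 (*Atf3*) was lowest in the first culture of clone 2. *Fos* mRNA, for example, was highest in wild-type culture 2. This was not tested.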
